A study of Mus musculus with 20 samples.

Results

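Erased H3K27me3 peaks were regions of mouse embryonic fibroblasts (MEFs) that carried a peak of the repressive mark trimethylated histone H3 lysine 27 before reprogramming and none in 3 lists of cells sampled later. They were chosen by the measured calls themselves. A peak of the Jmjd3+/+ (WT) MEF list was a member if it overlapped a Jmjd3-/- (KO) MEF peak by at least 1 bp and overlapped no peak of the day 5 WT FLAG, day 10 WT FLAG or day 10 KO FLAG lists. The rule gave 425 of the 6954 WT MEF peaks (6.11%), or 14.1% of the 3013 peaks shared by both MEF lists. A further 1622 shared peaks overlapped a peak in each of the 3 later lists and were called retained, and 966 overlapped a peak in 1 or 2 of them and were called partly retained. Every H3K27me3 peak was 1000 bp wide. Joined within 10 kb, the members formed 404 loci.

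The 14 peak lists came from 14 chromatin immunoprecipitation (ChIP-seq) libraries, 1 per group. WT samples were labelled strain C57BL/6J-OG2, which carries an Oct4-GFP reporter, and KO samples C57Bl6J, so genotype and strain cannot be told apart. MEFs at day 0 carried no virus. At day 5 and day 10 cells of both genotypes carried Oct4, Sox2, Klf4 and c-Myc (OSKM) from viral vectors and either a FLAG control vector or extra Jmjd3, and 10 such lists including the MEFs held H3K27me3 peaks. KLF4 was mapped at day 5 in WT cells with FLAG and with JMJD3, and FLAG-tagged JMJD3 was mapped at day 5 in WT cells with OSKM and with a low level of KLF4. The paper's legends place the day 5 and day 10 cells in medium with vitamin C, and its description of MEF medium names none. Between MEFs and later lists, the medium and the reprogramming factors therefore cannot be told apart. Reprogramming cultures are mixtures in which few cells reach pluripotency, so the lists average over cells of differing states. As a check of the fibroblast label, Col1a1, Col1a2, Col3a1, Vim, Pdgfrb, Prrx1 and Twist1, all active in fibroblasts, had 0 H3K27me3 peaks within 5 kb of a transcription start site (TSS) in either MEF list, and Thy1 had 1 in WT MEFs and 0 in KO MEFs.

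H3K27me3 is deposited by Polycomb repressive complex 2, which favours CpG-rich promoters of developmental regulators that are silent in a given cell type. It is removed by the demethylases JMJD3 and UTX or diluted when DNA is copied. KLF4 is a zinc finger factor that recognises a GC-rich motif and, in reprogramming, both silences fibroblast genes and opens epithelial and pluripotency genes.

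"Erased" here meant that a peak was no longer called. The lists hold no read numbers, and the reads that the paper's supplement lists for the H3K27me3 libraries were not used here. The depth behind each peak was therefore not taken into account. A mark that fell below the caller's threshold cannot be told from one that was gone. The paper scaled mouse H3K27me3 reads by the number of Drosophila reads from spiked-in cells, but whether this entered the peak calls was not stated. With 1 library per group no p-value was computed. Intervals are 95% Wilson intervals for shares and 95% Newcombe intervals for differences, they cover only the error of counting, and peaks that lie side by side are not independent of each other.

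The sequences of members ranged from CpG islands to CpG-poor DNA. The first lines show the central 300 bases of the 3 highest-scoring members with a protein-coding TSS within 10 kb and no untranslated region in the window. Each CpG dinucleotide is in capitals, since erased and retained peaks differed in CpG content. The forward strand of GRCm38 (mm10) is printed. The Lemd1 window (chr1:132190916-132191215), 366 bp from the TSS at the peak's centre, held 27 CpGs. The Adap1 window (chr5:139324447-139324746), in an intron, held 4, and the Gsx2 window (chr5:75085147-75085446), 9694 bp from the nearest TSS, held 14.
Lemd1: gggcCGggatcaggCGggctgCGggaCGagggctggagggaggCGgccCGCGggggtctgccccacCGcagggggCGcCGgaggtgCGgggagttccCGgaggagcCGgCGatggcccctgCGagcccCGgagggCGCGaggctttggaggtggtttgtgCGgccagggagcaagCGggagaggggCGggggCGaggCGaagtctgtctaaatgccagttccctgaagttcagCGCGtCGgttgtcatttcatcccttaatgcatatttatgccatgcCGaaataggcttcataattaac
Adap1: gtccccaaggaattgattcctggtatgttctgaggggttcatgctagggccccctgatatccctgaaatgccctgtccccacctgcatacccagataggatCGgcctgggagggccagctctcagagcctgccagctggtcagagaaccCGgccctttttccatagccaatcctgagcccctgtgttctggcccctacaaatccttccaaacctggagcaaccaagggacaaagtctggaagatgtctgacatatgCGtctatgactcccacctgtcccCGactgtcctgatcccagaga
Gsx2: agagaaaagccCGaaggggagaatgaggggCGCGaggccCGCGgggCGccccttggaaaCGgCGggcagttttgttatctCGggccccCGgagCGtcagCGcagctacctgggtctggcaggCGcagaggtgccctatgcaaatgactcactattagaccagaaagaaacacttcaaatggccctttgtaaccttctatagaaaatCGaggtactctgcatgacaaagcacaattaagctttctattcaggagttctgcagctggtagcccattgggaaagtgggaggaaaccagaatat

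The next lines show the 300 bases around the KLF4 peak inside members where both KLF4 lists had a peak and the window held the KLF core motif GGGNGTGG on either strand, in capitals. Windows with an untranslated region were left out. They are the Zfhx3 intron (chr8:108696043-108696342), a Krt8 intron (chr15:102003078-102003377) and an exon of Atp4a with the intron that follows it (chr7:30717291-30717590).
Zfhx3: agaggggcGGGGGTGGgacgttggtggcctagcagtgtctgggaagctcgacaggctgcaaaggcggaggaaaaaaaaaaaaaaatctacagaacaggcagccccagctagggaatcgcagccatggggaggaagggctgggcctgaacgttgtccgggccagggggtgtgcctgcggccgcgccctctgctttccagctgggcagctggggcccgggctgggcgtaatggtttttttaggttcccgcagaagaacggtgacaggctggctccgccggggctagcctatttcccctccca
Krt8: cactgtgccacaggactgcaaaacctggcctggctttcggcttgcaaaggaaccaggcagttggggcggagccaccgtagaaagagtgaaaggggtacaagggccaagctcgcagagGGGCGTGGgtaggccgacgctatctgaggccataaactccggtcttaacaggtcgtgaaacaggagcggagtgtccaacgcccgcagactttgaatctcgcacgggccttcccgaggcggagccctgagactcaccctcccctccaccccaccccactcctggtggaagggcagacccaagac
Atp4a: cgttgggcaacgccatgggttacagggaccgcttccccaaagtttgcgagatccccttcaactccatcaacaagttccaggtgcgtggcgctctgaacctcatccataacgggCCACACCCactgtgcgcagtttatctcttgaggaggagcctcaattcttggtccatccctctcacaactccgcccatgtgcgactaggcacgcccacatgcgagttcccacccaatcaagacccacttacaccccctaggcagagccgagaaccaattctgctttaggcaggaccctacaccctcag

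Few of the KLF4 peaks inside members held this motif. Within 200 bp windows centred on them it was found at 4 of 23 KLF4 peaks of the JMJD3 list (17.4%, 6.98 to 37.1), at 22.7% of the 110 KLF4 peaks inside retained H3K27me3 peaks and at 33.6% of all 14391 KLF4 peaks of that list. In the FLAG list it was found at 4 of 17 KLF4 peaks inside members (23.5%, 9.56 to 47.3) and at 23.2% of 56 inside retained peaks. Over that whole list the share was 35.5% of 10655 KLF4 peaks. Both intervals for members held the shares inside retained peaks and over the whole list. Over whole 1000 bp peaks the motif was found in 30.8% of members (26.6 to 35.4), 43.5% of retained peaks (41.1 to 45.9) and 36.7% of the WT MEF list. The AP-1 motif TGANTCA, which is its own reverse complement, showed the opposite order, with 20.0% of members (16.5 to 24.1), 11.7% of retained peaks (10.2 to 13.3) and 16.2% of the list. The members' lower GC content, described next, moves with both shares, and its part in them was not tested.

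Erased peaks scored lower than the other shared peaks. The score is the peak caller's own, on a scale that was not stated, and was ranked only within a list. The median member had a WT MEF score of 11.1, with quartiles of 8.22 and 16.5, and stood at percentile 47.0 of its list. Retained peaks had a median of 42.3, at percentile 85.5, and partly retained peaks stood at percentile 66.7. WT MEF peaks that KO MEFs lacked scored lower than members, with a median of 8.87 at percentile 32.4. In KO MEFs the median percentile was 37.9 for the peaks overlapping members and 72.5 for those overlapping retained peaks. In the lowest quartile of the WT MEF score 47.7% of the shared peaks were erased, in the next 36.6%, in the third 17.0%, and in the highest 2.58%, where 40 members lay beside 1185 retained peaks. Because score and class went together, differences from retained and partly retained peaks in TSS distance, CpG-island-like sequence, later calls and binding were also computed with the score quartiles weighted equally. Other comparisons were not.

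Erased peaks were poorer in CpG than the other shared peaks. The median GC content was 46.9% in erased, 52.5% in partly retained and 59.7% in retained peaks. The CpG observed/expected ratio, which is near 1 in CpG islands and low in most of the genome, had medians of 0.264, 0.410 and 0.589. CpG-island-like sequence, with GC content over 50% and a ratio over 0.6, made up 22 of 425 erased peaks (5.18%, 3.44 to 7.71), 19.4% of partly retained and 47.8% of retained peaks, against 32.7% of all shared peaks. Erased peaks were 42.6 percentage points lower than retained peaks (39.1 to 45.6), and 29.4 points lower (23.2 to 35.5) when score quartiles weighed equally. WT MEF peaks that KO MEFs lacked were similarly low, with a median ratio of 0.251 and 9.06% island-like peaks, so a low CpG content was not particular to erased peaks. Podxl, Lemd1, Ascl4 and Itgb4 lay among the exceptions, with CpG ratios of 0.858, 0.958, 0.959 and 0.754.

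**Figure D1:**
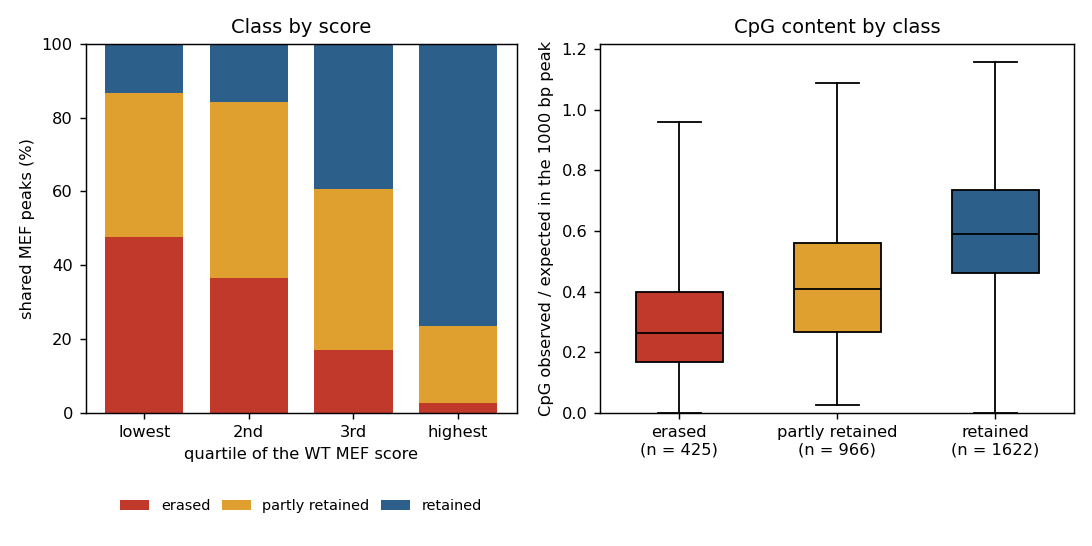
Left, the share of shared MEF peaks in each class (percent) by quartile of the WT MEF score, in stacked bars; the erased share falls from 47.7% in the lowest quartile to 2.58% in the highest. Right, the CpG observed/expected ratio of each class, with boxes from the lower to the upper quartile, a line at the median and whiskers to the lowest and highest peak; the median is 0.264 in erased and 0.589 in retained peaks.

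Erased peaks lay farther from genes than retained peaks. The midpoint of 243 members (57.2%) lay outside any annotated transcript, of 151 in an intron, of 14 in an untranslated region, of 11 in a coding exon and of 6 in a non-coding exon. Among retained peaks 23.3% lay outside transcripts and 21.7% in coding exons. A TSS lay within 5 kb of 236 members (55.5%, 50.8 to 60.2), against 79.4% of retained and 72.3% of all shared peaks. The gap was widest close to the TSS: 14.4% of erased and 55.7% of retained peaks lay within 1 kb. With score quartiles weighted equally the difference at 5 kb was 18.5 points (11.2 to 25.2 points lower in erased peaks). WT MEF peaks that KO MEFs lacked had a TSS within 5 kb in 47.8% of cases, and erased peaks were 7.75 points (2.75 to 12.7) above them. Of the 2178 shared peaks within 5 kb of a TSS 10.8% met the rule. Erased peaks were spread over the chromosomes, with 47 on chromosome 2, 41 on chromosome 7 and 2 on X, and made up between 8.51% (chromosome 4) and 21.2% (chromosome 16) of each chromosome's shared peaks.

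The 5 H3K27me3 lists that the rule did not use called few of the members again. The day 5 KO FLAG list overlapped 80 of 425 (18.8%, 15.4 to 22.8), against 96.8% of retained and 77.8% of all shared peaks. With JMJD3 added, the day 5 WT list overlapped 14.6% (11.5 to 18.3) of members and 69.2% of all shared peaks, and the day 5 KO list 21.6% (18 to 25.8) and 76.7%. At day 10 the WT list with JMJD3 overlapped 5.41% (3.63 to 7.99) of members and 47.7% of shared peaks, and the KO list 9.41% (6.99 to 12.6) and 63.6%. None of the 5 lists called 261 members (61.4%), whereas 2 of the 1622 retained peaks were called in none. Exactly 1 list called 77 members, 2 lists called 53, 3 lists 23, 4 lists 10 and all 5 lists 1.

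Members were called less often than retained peaks in each list, with differences of -66 to -81.2 points, and of -49.2 to -72.8 points with score quartiles weighted equally. WT MEF peaks that KO MEFs lacked, which were not selected on later absence, were called in 31.4% of cases in the day 5 KO FLAG list, 12.5 points (8.30 to 16.3) above the members. The order of the 5 shares among members followed the number of peaks in each list, from 3045 in day 10 WT JMJD3 to 6539 in day 5 KO JMJD3. Cut by score to 3045 peaks each, a comparison chosen after seeing the data, the lists called 4.47% to 7.29% of members. The cut removes by its construction any difference in the number of peaks and drops weak peaks, so it does not show that the lists were alike. The rule itself asked for absence in both genotypes at day 10, so regions lost at day 10 in WT cells alone are not among the members.

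**Figure D2:**
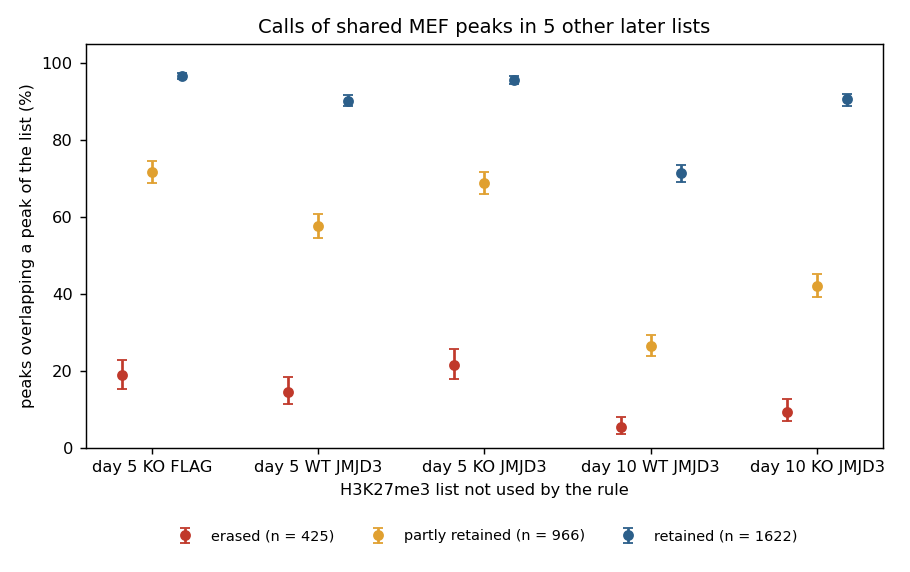
Share of erased, partly retained and retained MEF peaks that overlapped a peak (percent, with 95% Wilson intervals) in each of the 5 later H3K27me3 lists that the rule did not use. Erased peaks lie between 5.41% and 21.6%, below partly retained and retained peaks in each list.

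The counts behind the rule were as follows. Of the shared peaks 598 were absent from day 5 WT FLAG, 1106 from day 10 WT FLAG and 980 from day 10 KO FLAG, and 740 from both day 10 lists. Of the 598 absent at day 5, 425 (71.1%) were absent from both day 10 lists too. At the edge of the rule, 16 members had a later peak beginning 7 to 97 bp away, and 24 shared peaks missed membership by an overlap of 2 to 98 bp. The median WT MEF scores of these were 15.3 and 11.4, and other later lists called 14 of the 16 and 20 of the 24.

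The members fell along a range from the flanks of regions that stayed marked to regions that stood alone. The nearest peak of the 3 later lists lay under 1 kb away for 68 members, at 1 to 5 kb for 71, at 5 to 10 kb for 34, at 10 to 50 kb for 113 and at 50 kb or more for 139 (32.7%). The other later lists called 66.2% (54.3 to 76.3) of the nearest group again and 23.7% (17.4 to 31.5) of the farthest. The share with a TSS within 5 kb did not run one way, with 76.5%, 59.2%, 32.4%, 46.9% and 56.1% from the nearest to the farthest group. The median WT MEF score was 14.5 in the nearest and 10.3 in the farthest group, and its part in these shares was not tested. Counting all 8 later lists, 167 members (39.3%, 34.8 to 44.0) had no later peak within 10 kb. The farthest group had a median GC content of 44.3%, the lowest of the 5 groups, and the nearest group 49.0%.

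Transcription factor and ligand genes were looked at apart, a grouping chosen after the values were seen and given as counts only. Of 32 members within 5 kb of a TSS of a transcription factor or ligand gene of 8 lists (HOX, other homeobox, forkhead, T-box, Sox, GATA, basic helix-loop-helix and secreted ligand genes), 27 (84.4%) had a later peak within 5 kb and 4 had none within 50 kb. Of the 204 members near other TSSs, 67 (32.8%) had a later peak within 5 kb and 74 had none within 50 kb. The median distance to the nearest later peak was 650 bp in the first group and 21076 bp in the second. How densely the loci of each group were marked was not tested.

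**Figure D3:**
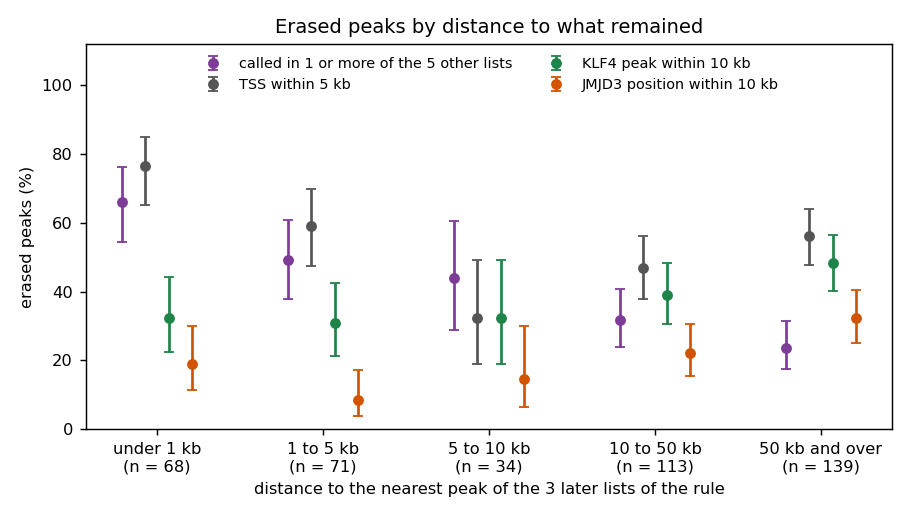
Share of erased peaks (percent, with 95% Wilson intervals) with each property, by distance to the nearest peak of the 3 later lists of the rule. From under 1 kb to 50 kb and over, the share called in another later list falls from 66.2% to 23.7%. The share with a JMJD3 position within 10 kb does not run one way, at 19.1%, 8.45%, 14.7%, 22.1% and 32.4%.

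At most of these developmental regulators a later peak was still called close to the erased one. Lhx1, a LIM homeobox gene, had an erased peak (chr11:84526340-84527339) with a score of 38.1 in WT MEFs and 7.19 in KO MEFs. Later peaks of the rule's lists began 107 bp away, and the day 5 KO FLAG list overlapped it. Gdf7, which encodes a BMP family ligand, had an erased peak scored 40.9 and 9.73, with a later peak 23 bp away and calls in the day 5 KO JMJD3 and day 10 WT JMJD3 lists. Within 5 kb of the Gdf7 TSS the 3 lists of the rule held 2, 2 and 1 peaks, so the gene remained marked.

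Evx1, an even-skipped homeobox gene, had an erased peak scored 31.7 and 7.4, 594 bp from a later peak. Gdf6, another BMP family ligand, had one scored 34.9 and 8.17, 645 bp from a later peak and called in 4 of the 5 other lists. Hoxb6 (18.9 and 9.92), Hoxc10 (14.6 and 7.79), Hoxd9 (14.2 and 12.7) and Hoxc13 (13.8 and 12) each had a later peak within 5 kb. Gata2, a regulator of blood progenitors, had one scored 18.5 and 6.81, 406 bp from a later peak. Sox6, a SoxD factor of cartilage and muscle, had 2 erased peaks, scored 26.5 and 14.5 in WT MEFs, with later peaks 5157 and 7 bp away.

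At other genes the only peak disappeared and nothing was called nearby. Podxl encodes podocalyxin, a sialomucin of podocytes and of the pluripotent cell surface. Its erased peak (chr6:31563069-31564068, 413 bp from the TSS) had the highest score of all members, 71.7 in WT MEFs and 14.8 in KO MEFs. In the 8 later lists the nearest peak lay 95783 bp away in day 10 KO FLAG, 283871 bp in day 5 KO JMJD3 and 580656 to 603884 bp in the other 6. Adap1, which encodes an Arf GTPase-activating protein, had an erased peak scored 61.8 and 23.3, and the nearest peak of the 8 lists lay 26477 bp away. Gna14, a G protein alpha subunit gene picked after its values were seen, had one scored 42.7 and 21.2, with no later peak within 345736 bp.

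Krt8, a keratin of simple epithelia, was the only gene of the epithelial list with an erased peak within 5 kb, 1 of 23 shared peaks (4.35%) beside 10.8% of all shared peaks near a TSS. The peak (chr15:102002418-102003417) scored 17.5 in WT MEFs and 11.1 in KO MEFs, and no later list had a peak within 21063 bp. Of the other shared peaks at epithelial list genes 13 were retained. Outside the list, Perp, a desmosome component, had an erased peak 127 bp from its TSS, scored 13.6 and 9.14, with no later peak within 100412 bp. Itgb4, the hemidesmosome integrin beta 4 gene, and Cyp2s1, a cytochrome P450 gene of epithelia, had members with no later peak within 90236 and 126945 bp. Itgb4, Perp and Cyp2s1 were named because their peaks held a KLF4 or JMJD3 site. They were placed here from 32 such members for their epithelial function, and no share over those members was computed. WT MEF scores of Itgb4 and Cyp2s1 were 17.1 and 34.0, and KO MEF scores 10.2 and 11.6.

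The pluripotency list had 16 shared peaks within 5 kb of its TSSs and 2 were erased (12.5%), close to the 10.8% of all shared peaks near a TSS. Nr5a2, an orphan nuclear receptor gene, had an erased peak scored 19.2 and 12, 44 bp from a later peak, and the gene remained marked with 4, 2 and 3 peaks in the lists of the rule. Sall4, a zinc finger gene of pluripotent cells, had one scored 8.27 and 7.2, with a later peak 2003 bp away and 1 peak near the gene in each list of the rule. L1td1, an RNA-binding protein gene of pluripotent cells chosen after its values were seen, had an isolated erased peak (chr4:98727107-98728106) scored 20.8 and 13. The nearest later peak lay 88197 bp away, and KLF4 peaks began 153 and 254 bp and a JMJD3 position 56 bp from its edge.

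Across all lists, 205 protein-coding genes had an erased peak within 5 kb of a TSS, 10.7% of the 1908 that had any shared peak there. No peak of the 3 later lists lay within 5 kb of a TSS of 123 of them, and no peak of all 8 later lists for 82. No gene had 3 or more erased peaks and 9 had 2. Of all 2178 shared peaks within 5 kb of a TSS, 236 (10.8%) were erased. By list, 5 of 24 shared peaks at HOX genes were erased, 15 of 117 at other homeobox genes and 2 of 24 at forkhead genes. At Sox genes 3 of 6 were erased, 2 of them at Sox6. At GATA, basic helix-loop-helix and ligand genes 1 of 5, 2 of 28 and 4 of 38 were erased. At ion channel genes 3 of 71 were erased (Kcnh3, Ryr1 and Cacna1a) and at neurotransmitter receptor and transporter genes 1 of 49 (Slc17a6, the vesicular glutamate transporter 2). T-box, cadherin, CDK inhibitor and Polycomb genes had 0 erased of 14, 9, 1 and 5, and mesenchymal genes had no shared peak. The median WT MEF percentile of the erased peaks was 57.3 for HOX and 68.0 for other homeobox genes, beside 49.6 for all erased peaks near a TSS.

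KLF4 was found within 10 kb of erased peaks more often than of retained peaks. A KLF4 peak of either list lay within 10 kb of 166 members (39.1%, 34.5 to 43.8), against 27% of retained (24.9 to 29.2) and 31.1% of all shared peaks. The difference from retained peaks was 12.1 points (7.02 to 17.2), and 16.8 points (9.17 to 23.3) with score quartiles weighted equally. Partly retained peaks, at 34.5%, were 4.59 points lower than members with an interval that spanned 0 (-0.868 to 10.1), and 8.49 points lower (2.18 to 14.6) with score quartiles weighted equally. Closer to the peak no difference from retained peaks was detectable. A KLF4 peak lay inside 25 members (5.88%, 4.02 to 8.54), 7.09% of retained and 6.54% of all shared peaks, a difference with an interval from -3.51 to 1.69 points. Within 1 kb the shares were 11.3% of members and 12.8% of retained peaks. With score quartiles weighted equally members stood above retained peaks at both distances, by 2.74 points inside (-2.49 to 7.37) and 5.80 points within 1 kb (-0.0884 to 10.8), and both intervals spanned 0.

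JMJD3 positions with OSKM were more frequent at erased than at retained peaks at each distance. One lay inside 15 members (3.53%, 2.15 to 5.74), 9 retained peaks (0.555%, 0.292 to 1.05) and 1.36% of all shared peaks, a difference of 2.97 points (1.51 to 5.20). With score quartiles weighted equally this was 3.41 points with an interval that spanned 0 (-0.600 to 7.25). Within 10 kb the shares were 22.1% of members (18.4 to 26.3), 15.4% of partly retained, 9.56% of retained (8.22 to 11.1) and 13.2% of all shared peaks. The difference from retained peaks was 12.6 points (8.57 to 17.0), and 11.5 points (5.15 to 17.3) with score quartiles weighted equally.

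In cells with low KLF4, where the JMJD3 list held 2284 positions instead of 14067, none lay inside a member (0 of 425, up to 0.896%) and 4 of 1622 retained peaks held one (0.247%), a difference not detectable at these numbers. Within 10 kb there were 14 members with such a position (3.29%, 1.97 to 5.45), against 2.28% of retained peaks, with a difference of 1.01 points (-0.557 to 3.26). Both KLF4 and JMJD3 with OSKM lay within 10 kb of 66 members (15.5%) and of 6.10% of retained peaks, 9.43 points apart (6.04 to 13.3).

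Members far from later H3K27me3 peaks had sites nearby more often than other members. Among the 167 members with no later peak within 10 kb in any of 8 lists, 47.9% (40.5 to 55.4) had KLF4 and 32.9% (26.3 to 40.4) JMJD3 within 10 kb. Among the other 258 members the shares were 33.3% (27.9 to 39.3) and 15.1% (11.3 to 20.0), a difference of 14.6 points (5.04 to 23.9) for KLF4 and 17.8 points (9.55 to 26.2) for JMJD3. JMJD3 carried a FLAG tag and was overexpressed in WT cells, and these positions say nothing about endogenous JMJD3 or about KO cells. The rule fixed the absence from day 10 KO FLAG, and the other 3 KO lists together called 150 members (35.3%), against 99.8% of retained, 88.3% of partly retained and 49.1% of WT MEF peaks that KO MEFs lacked.

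**Figure D4:**
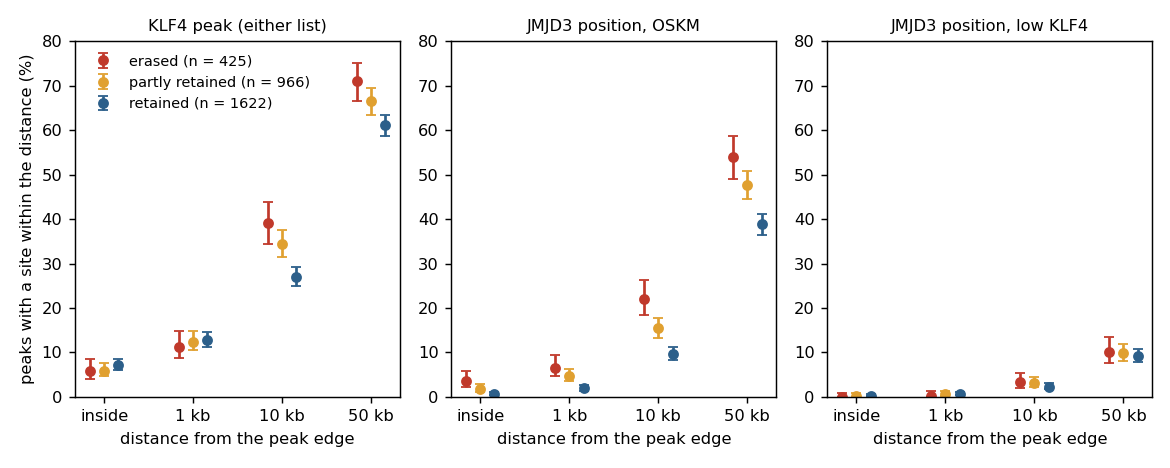
Share of erased, partly retained and retained MEF peaks (percent, with 95% Wilson intervals) with a KLF4 peak of either list, a JMJD3 position with OSKM or a JMJD3 position with low KLF4 inside or within 1, 10 or 50 kb of the peak edge. Within 10 kb, KLF4 lies near 39.1% of erased and 27% of retained peaks and JMJD3 with OSKM near 22.1% and 9.56%; with low KLF4 the classes overlap.

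In all, 32 members held a KLF4 peak or a JMJD3 position. Of these, 17 held a KLF4 peak of both lists, 7 of the JMJD3 list only and 1 of the FLAG list only. KLF4 and JMJD3 occurred together in 8 and JMJD3 without KLF4 in 7. No peak of the 8 later lists lay within 10 kb of 19 of the 32, against 167 of all 425 members (39.3%). In Podxl the KLF4 interval of the FLAG list (chr6:31563832-31564064) and the JMJD3 position at base 31564045 lay at the gene's 5′ end. In Zfhx3, which encodes a zinc finger homeobox factor, an intronic peak scored 44.5 in WT MEFs and 22.8 in KO MEFs held KLF4 in both lists and JMJD3 at base 108696218, and no later H3K27me3 peak lay within 96077 bp.

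At Gsx2, a homeobox gene of the ventral forebrain, a peak downstream of the gene, 9694 bp from the TSS, scored 49.6 and 25.2 and held KLF4 in both lists and JMJD3, with later H3K27me3 peaks 466 bp away at the nearest. Perp, Fam222a and a peak 13 bp from a Mcf2l TSS also held KLF4 in both lists and JMJD3. Peaks nearest to Nrarp, a Notch pathway regulator, and to Sh3bp4 held JMJD3 and KLF4 of the JMJD3 list. The Krt8 peak held KLF4 in both lists, and a JMJD3 position lay 110 bp from its edge. Itgb4 held a JMJD3 position and had KLF4 peaks 1246 and 1239 bp away. Cyp2s1, Chdh (choline dehydrogenase), Fbxl16, Ddn, Map4k1 and Atp4a (the gastric proton pump, with 2 overlapping members at the same KLF4 peaks) held KLF4 in both lists without JMJD3, as did the peaks nearest to Nos2, Ttll10 and Wapl. Tiam1 (a Rac exchange factor), Ascl4, Dkkl1, Pstpip2 and the peak nearest to Otx2 held KLF4 only of the JMJD3 list, and a peak nearest to H2afz only of the FLAG list. JMJD3 without KLF4 was found in members nearest to Tle4, a Groucho co-repressor gene, Ndrg4, Mad2l1, Nol4, 1700067P10Rik and Wif1, a secreted Wnt inhibitor gene. The sites came from day 5 WT cells, while the erased calls rested on MEFs and on 3 later lists, of which day 5 WT FLAG was the same day, genotype and vector as the KLF4 FLAG list.

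Of the other members among the 10 highest scores, some lay beside later peaks. Lemd1, a LEM domain gene, had an erased peak scored 63.6 and 28.7, with a day 5 WT FLAG peak 256 bp away and an overlap with the day 5 KO FLAG list. Rncr4, a non-coding RNA of the retina, had one scored 61.0 and 11.6, 190 bp from a later peak and called in both day 5 JMJD3 lists. Lypd3, a surface protein gene of squamous epithelium, had one scored 45.8 and 25.4 whose later neighbour began 7 bp away, and all 3 day 5 lists outside the rule called it. The peak nearest to Neurod2, a neuronal basic helix-loop-helix gene, scored 44.6 in WT MEFs. Its nearest peak of the 8 lists lay 18579 bp away. The peaks nearest to Shb (45.5) and Fam222a (50.6) had none of the rule's lists within 39545 and 23487 bp. Other later lists came closer, with a day 5 KO JMJD3 peak 4903 bp from the Shb member. A day 5 KO FLAG peak lay 423 bp from the Fam222a member. Foxo1, a forkhead factor gene outside the 10, had a lower-scoring member (18.3 and 7.88). The day 5 KO JMJD3 list had a peak 5726 bp away and the other 7 later lists none closer than 1066792 bp. JMJD3 positions lay 1576 bp (OSKM) and 1529 bp (low KLF4) from its edge.

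**Figure D5:**
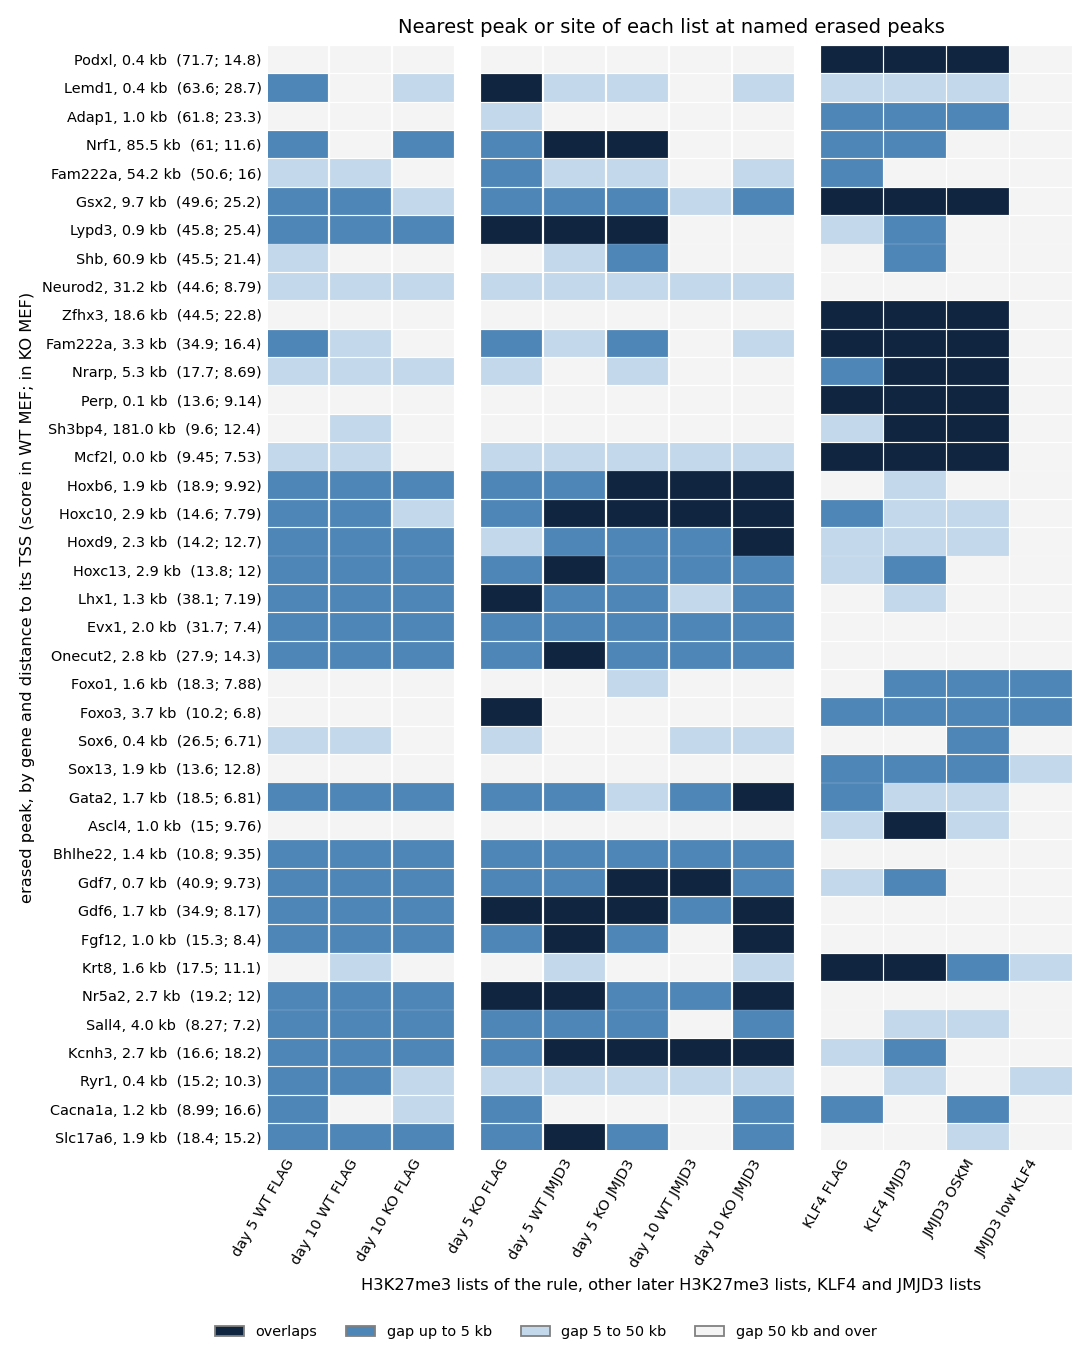
Named erased peaks (rows, with gene, distance of the peak's midpoint to the gene's TSS in kb, and the WT MEF and KO MEF scores) against the 3 later H3K27me3 lists of the rule, the 5 other later lists and the KLF4 and JMJD3 lists (columns). Shading gives the gap from the peak to the nearest peak or site of each list. Podxl, Zfhx3 and Perp show no later H3K27me3 peak within 50 kb and hold KLF4 and JMJD3, while Lhx1, Evx1 and Gdf7 have later peaks within 5 kb in each of the 3 lists of the rule.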

How the data were processed

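The analysis drew on 14 ChIP-seq peak lists (H3K27me3, 10 lists; KLF4, 2; FLAG-JMJD3, 2), 1 per labelled group, and left out 6 samples that came with no list. The authors mapped reads to mm10 with bowtie2 (version 2.2.0 in the submitters' processing notes), then ran DFilter on each H3K27me3 library and MACS2 on each KLF4 or JMJD3 library. The deposited H3K27me3 lists give a score from 6.56 to 200 on an unstated scale, used only to rank peaks within a list (percentile, the percent of the list below a peak). The deposited KLF4 and JMJD3 lists give positions without a score.

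Distances ran from peak edges to sites of other lists and from peak midpoints to TSSs of GENCODE M21 basic transcripts. Sequence was read from GRCm38.p6, the reference that mm10 is built on. Tools were bedtools 2.31.1, samtools 1.23.1 and, under Python 3.11.15, pysam 0.24.0, scipy 1.17.1 and numpy 2.4.6. The class assignment was tested on simulated data, with 1500 of 1500 peaks recovered, and the number of members was checked against bedtools.

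The members and the 16 gene lists were chosen with earlier results of these data known. For each of the 10 highest-scoring members the nearest protein-coding gene was named at any distance, with Rncr4 in the text in place of Nrf1. Genes with 3 or more erased peaks and those nearest to a member holding a KLF4 or JMJD3 site were also to be named. So was every epithelial, pluripotency, mesenchymal and CDK inhibitor list gene with an erased peak, and up to 4 per other list. Gna14 and L1td1 were added after their values were seen. The plot of named peaks labels each of the 10 by its nearest protein-coding gene. One of the genes that met this naming rule is left out here. Alternatives changed the overlap, distances, list lengths, lists of the rule, TSS set, sequence window and score weighting.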

Additional observations from a re-analysis of the deposited data

How the results depend on the processing

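The number of erased peaks stayed within 1.5 times of 425 under 8 of 11 alternatives. It was 93 with the better-scoring 50% of both MEF lists, 740 without the day 5 WT FLAG list and 2534 without the KO MEF list, so the KO MEF peak set the number most. The share of members called in the other later lists, in the order day 5 KO FLAG, day 5 WT JMJD3, day 5 KO JMJD3, day 10 WT JMJD3 and day 10 KO JMJD3, was 12%, 10.1%, 14.8%, 2.59% and 5.88% at 50% overlap, and 27.8%, 20.7%, 28.9%, 8.47% and 15.1% where a peak within 1 kb counted. Cut to the shortest list, a setting chosen after seeing the data, it was 4.71%, 6.59%, 7.29% and 4.47% in the lists other than day 10 WT JMJD3.

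The difference of members from retained peaks in these lists, whose direction the selection largely set, stayed below 0 throughout. In percentage points it moved past its interval to -72.6, -70.6, -56.9 and -71.9 at 50% overlap (day 5 KO FLAG, day 5 WT JMJD3 and both day 10 lists), to -69.5, -71.2, -67.6 and -76.6 at 1 kb (the day 5 lists and day 10 KO JMJD3), to -71.4, -66.2, -68.1, -49.2 and -72.8 with score quartiles weighted equally, and to -84.1 and -80.7 in the 2 KO day 5 lists cut to the shortest. The TSS difference was -41.4 points at 1 kb, -16.3 at 10 kb and -18.5 with score quartiles weighted equally, and that in CpG-island-like sequence -29.4 with them.

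The direction of 5 of the differences in binding turned. For KLF4 of the FLAG list it was 0.906 points inside the peak and -0.154 at 1 kb, for KLF4 of the JMJD3 list -0.950 and -1.50, and for JMJD3 with low KLF4 -0.247 and -0.381. For JMJD3 with OSKM it stayed above 0, at 2.97 inside and 4.68 at 1 kb. With score quartiles weighted equally the KLF4 differences were above 0 at these distances (FLAG list 4.57 and 4.93, JMJD3 list 2.77 and 5.58), with intervals that spanned 0. The cause was not tested. No paired analysis was possible because each group had 1 library. Read depth was not used, so weak members near the caller's threshold cannot be told apart from regions that lost the mark, and 103 members lay in the lowest quartile of the WT MEF score.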
